A study of Mus musculus with 6 samples.

Results

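Th17 cells were set against naive T cells of wild-type mice by RNA-seq, with 2 libraries of each cell type. The genes described here are the 15046 with at least 10 counts in at least 2 of these 4 libraries, of 54532 genes in the count table. For 13173 of them, libraries of both types held a count of at least 10. Another 1182 reached it in Th17 libraries alone and 691 in naive libraries alone. Such genes were kept through a single type, so the filter itself favoured a difference in them. The text says where a gene list holds 3 or more of them. At the edge of the rule, 246 genes had a second-highest count of 10 and were kept, and 261 had a second-highest count of 9 and were not. All libraries carry the same labels apart from cell type, namely genotype WT, treatment "no" and thymus as the tissue, and the field for the cell line reads "Raw Naive T" or "Raw Th17". Treg cells, with the same labels and 2 libraries, entered the model for its estimate of spread and for a separate comparison near the end. The sources used here do not say how the cells were isolated, or whether and with which signals Th17 cells were cultured. Time in culture, stimulation and lineage cannot be told apart in any difference below.

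Naive T cells have not met their antigen, divide rarely and circulate between blood and lymph nodes. Th17 cells are helper T cells that form when antigen arrives together with transforming growth factor beta and interleukin-6, and that are maintained by interleukin-1 and interleukin-23. They are defined by secretion of interleukin-17A and interleukin-17F, which act on epithelial cells to recruit neutrophils and defend barrier surfaces.

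The libraries held 16458939 and 16569280 counts for naive cells and 17491083 and 17395469 for Th17 cells, numbered 1 and 5 in the table. Correlations used log2 CPM after adding a prior of about 1 count, scaled to library size. Over all tested genes, which are no independent replicates, r was 0.979 between the naive and 0.984 between the Th17 libraries. Between types it was 0.762 to 0.780. No label tells if 2 libraries of a type are from different mice or cultures. The p-values therefore rest on a spread between libraries that may be technical. The mitochondrial genome took 3.42% and 3.45% of naive counts and 1.10% and 1.74% of Th17 counts, and ribosomal protein genes took 10.4% and 14.3% against 4.68% and 5.33%. Genes of helper T cells were present in both types, with Cd4, the co-receptor for MHC class II, at 781 and 699 CPM (counts scaled to library size) in naive and 351 and 552 CPM in Th17 libraries. Of 8 thymocyte genes, which summed to 288 and 331 CPM in naive and 95.7 and 142 CPM in Th17 libraries, the defining genes Rag2 and Ptcra had 0 counts in every library and Rag1 had 6 counts in Th17 library 1 and 0 elsewhere. Dntt, another gene of immature thymocytes, stood at 8.19 and 11.5 CPM in naive and 1.70 and 7.88 CPM in Th17 libraries, and most of the sum came from Themis, which mature T cells express too. The summed level of 7 B cell genes was 481 and 505 CPM in naive against 35.1 and 25.3 CPM in Th17 libraries, most of it Ighm, and that of 9 myeloid genes 31.7 and 39.4 against 5.48 and 6.12 CPM. Gamma-delta T cell genes, 5 in number, summed to 28.4 and 29.6 CPM in naive against 2.18 and 1.92 CPM in Th17 libraries. The sum of 4 genes of stroma and endothelium was 291 and 254 against 74.4 and 84.2 CPM. Nearly all of it was Pecam1, at 286 and 253 CPM in naive and 72.8 and 82.9 CPM in Th17 libraries. Col1a1, Col1a2 and Pdgfrb were at no more than 2.97 CPM in any of these libraries. Red blood cell genes summed to 23.5 CPM in Th17 library 1 and 0.0533 CPM in library 5. The part of these other cells in the differences below was not tested, apart from the values given beside them.

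By edgeR's quasi-likelihood test with a Benjamini-Hochberg adjusted p under 0.05, which is what called, higher and lower mean below, 4553 genes (30.3% of those tested) were higher in Th17 cells and 4406 (29.3%) were lower. With the stricter test that a change exceeds 2-fold, 2383 (15.8%) were higher and 1839 (12.2%) lower. By estimated size, 907 genes were at least 16-fold higher and 384 at least 16-fold lower, and 464 and 162 passed 64-fold. Libraries of the types did not overlap, with Th17 higher in 6000 genes (39.9%) and lower in 5982 (39.8%). In 227 genes called higher the naive libraries held 0 counts, and in 88 called lower the Th17 libraries held 0 counts. The median log2 fold change of the tested genes was -0.03. Scaling by total count alone would move that median to 0.21 and raise the share of higher genes among those called from 50.8% to 62.8%, so all changes are relative to the TMM scale used here. In bulk RNA, fewer cells expressing a gene and less RNA per cell cannot be told apart. Log2 fold changes (Th17 minus naive) are given with their standard error, and levels as CPM in libraries 1 and 5 in that order. Where leaving out 1 library moved a fold change by over 1.5 times or ended a call, the value without it follows in brackets.

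**Figure D1:**
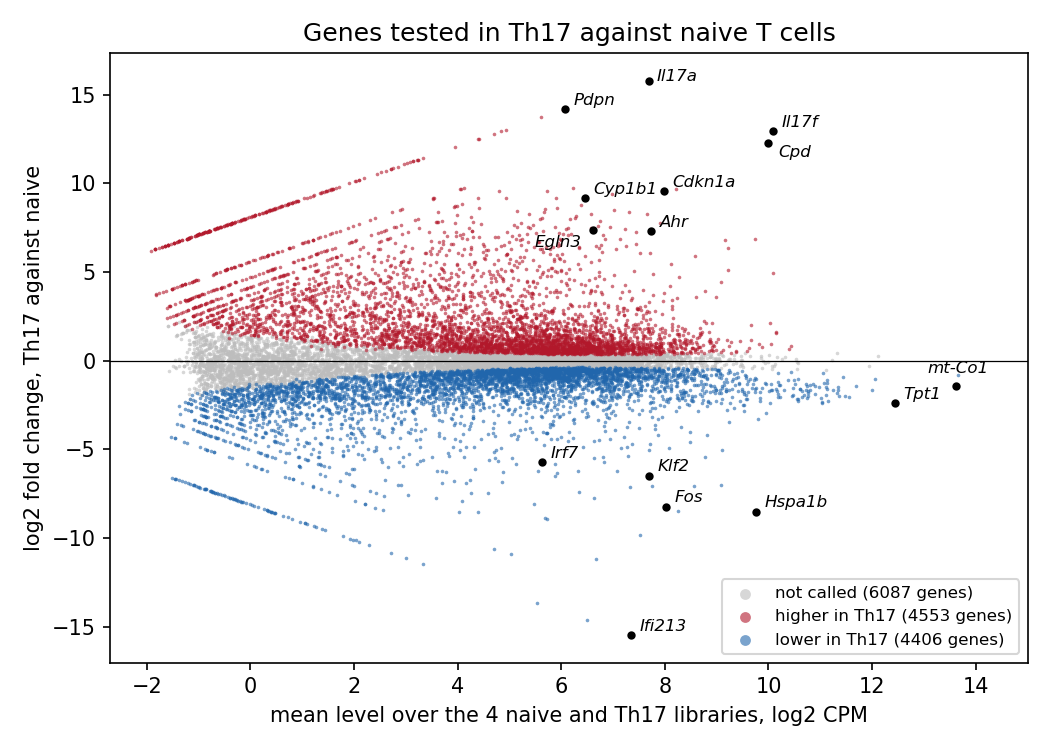
Mean level over the 4 naive and Th17 libraries (log2 CPM, horizontal) against the log2 fold change of Th17 over naive cells (vertical) for the 15046 tested genes, each a point, coloured by call (4553 higher, 4406 lower). Il17a, Il17f and Cpd lie at the upper right, and Fos and Hspa1b at the lower right; the straight lines of points at low levels are genes with 0 or few counts in a cell type.

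Of all tested genes, Il17a had the largest fitted log2 fold change, and most other cytokine genes of the lineage rose with it. Of 15 listed secreted factors 13 passed the filter, 7 of them through Th17 libraries alone, and 11 were higher and 1 lower, with a median log2 fold change of 7.32, or 6.86 with genes at 0 counts set to their bound. Il17a (chr1:20730905-20734496, forward strand, mm10) had 0 counts in both naive libraries and stood at 328 and 496 CPM in Th17 libraries, at least 2062-fold higher against a floor of 3 counts per library. Such bounds, and the intervals given for genes with 1 to 3 counts in a type, cover counting error only. Il17f (chr1:20777146-20790617, reverse strand) stood at 0.387 and 0.137 CPM in naive and 2187 and 2189 CPM in Th17 libraries (log2 fold change 12.97 ± 0.37, or 13.89 without naive library 1, adjusted p = 1.2e-11), and had the largest gain of any gene in CPM, a scale without gene length. Per unit of length, the mean level in Th17 cells was 1082 CPM per kilobase for Il17f and 352 CPM per kilobase for Il17a. Il21, which acts back on helper T cells and on B cells, rose from 2.58 and 1.31 to 209 and 248 CPM (6.86 ± 0.27, adjusted p = 1.2e-10).

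The tissue-acting cytokine Il22 and the chemokine Ccl20, the ligand of Ccr6, had 0 naive counts. Il22 stood at 27.6 and 76.8 CPM in Th17 libraries, at least 261-fold higher. Ccl20 stood at 77.1 and 37.5 CPM, at least 287-fold higher. Il9, made by a neighbouring helper lineage and by some Th17 cells, stood at 46 and 15.7 CPM (at least 154-fold). These 3 genes differed by over 2-fold between the Th17 libraries themselves. Without Th17 library 5 the fitted log2 fold change of Il22 was 11.86 rather than 12.81, and without Th17 library 1 it was 12.31 rather than 12.94 for Ccl20 and 11.05 rather than 12.05 for Il9, all still called. The regulatory cytokine Il10 stood at 0 and 0.481 CPM in naive and 53.5 and 23.4 CPM in Th17 libraries (7.32 ± 0.63, or 6.30 without naive library 1, 12.41 without naive library 5, 6.60 without Th17 library 1, adjusted p = 3.0e-07). Tgfb1, which encodes the autocrine growth factor TGF-β1, rose from 106 and 99.8 to 295 and 267 CPM (1.45 ± 0.16), and Lta and Tnf rose by 1.71 ± 0.19 and 1.37 ± 0.20. Ltb, which encodes lymphotoxin beta, was the exception and fell from 627 and 894 to 155 and 149.6 CPM (-2.32 ± 0.21, adjusted p = 2.3e-07). Csf2, the gene of the inflammatory cytokine GM-CSF, did not pass the filter, with 3 and 3 counts in naive and 4 and 18 in Th17 libraries.

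Neighbouring genes within 250 kb of Il17a were higher in Th17 cells as well. Besides Il17f they included the replication gene Mcm3 at 43 and 47.1 CPM in naive and 508 and 406 CPM in Th17 libraries (3.34 ± 0.20), the progestin receptor gene Paqr8 at 8.64 and 10.7 CPM in naive and 80.4 and 73.8 CPM in Th17 libraries (2.99 ± 0.22) and Pkhd1, with 1 count over both naive libraries and 1.12 and 1.65 CPM in Th17 libraries (ratio 41.6, 95% interval 7.14 to 1674). Of the 10 listed secreted factors with a RefSeq window, 3 held a half-site for nuclear receptors such as the product of Rora. It was searched as AGGTCA on either strand in the 250 bases before the RefSeq start (GRCm38.p6). The promoters of these 3 genes, Il17a, Il17f and Ccl20, are shown. The windows are chr1:20730655-20730904 on the forward strand, chr1:20784271-20784520 on the reverse strand and chr1:83116516-83116765 on the forward strand. The Il17f window lies inside the gene interval given above, since the RefSeq start is not at the end of that interval. The windows are written 5′ to 3′ along the gene with the half-site in capitals. The half-site begins 120, 58 and 174 bases before the start in that order.
Il17a: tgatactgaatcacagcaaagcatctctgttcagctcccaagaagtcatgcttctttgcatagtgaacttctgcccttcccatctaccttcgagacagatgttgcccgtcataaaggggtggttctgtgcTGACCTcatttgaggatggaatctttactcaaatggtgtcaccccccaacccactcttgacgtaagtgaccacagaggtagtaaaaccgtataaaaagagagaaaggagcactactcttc
Il17f: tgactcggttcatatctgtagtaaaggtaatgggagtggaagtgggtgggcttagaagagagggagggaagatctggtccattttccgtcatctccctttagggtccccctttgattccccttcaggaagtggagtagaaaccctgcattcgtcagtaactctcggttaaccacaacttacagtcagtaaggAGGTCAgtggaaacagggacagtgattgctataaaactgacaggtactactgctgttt
Ccl20: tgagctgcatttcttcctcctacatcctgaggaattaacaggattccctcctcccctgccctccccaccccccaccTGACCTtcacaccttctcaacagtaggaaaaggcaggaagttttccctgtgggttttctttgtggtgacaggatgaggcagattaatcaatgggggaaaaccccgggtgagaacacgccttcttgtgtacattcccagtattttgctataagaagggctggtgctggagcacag
RefSeq windows matched 10172 of the 15046 tested genes by symbol, and 13.1% of these held the half-site, as did 13.5% of genes called over 2-fold higher and 16.3% of those called over 2-fold lower. A 6-base match is a description of these letters and not a binding site.

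Transcription factors that make or maintain Th17 cells were mostly higher. Of 17 listed Th17 transcription factors, 14 were higher and 2 lower, with a median log2 fold change of 3.08. The number lower was 0 without naive library 1, without either Th17 library and with total counts. The nuclear receptor gene Rora rose from 9.67 and 5.43 to 189 and 223 CPM (4.76 ± 0.24). Ahr, a receptor for environmental and tryptophan-derived ligands that promotes Il22, rose from 3.10 and 2.13 to 406 and 441 CPM (7.33 ± 0.24). Maf, an activator of Il10 and Il21, rose from 13.3 and 12 to 737 and 769.8 CPM (5.89 ± 0.20), and Bhlhe40 from 2.45 and 1.86 to 452 and 504 CPM (7.79 ± 0.25). Naive and Th17 libraries did not overlap for Rora, Ahr, Maf and Bhlhe40, as for 39.9% of all tested genes with Th17 higher.

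The factors that open chromatin at the earliest stage of the lineage changed less evenly. Irf4 rose from 13.6 and 11.3 to 565 and 528 CPM (5.45 ± 0.22), while its partner Batf, already at 41.1 and 43.1 CPM in naive cells, reached 99.7 and 101 CPM (1.26 ± 0.17) and Stat3, which carries the signal of interleukin-6 and interleukin-23, went from 252 and 204 to 558 and 558 CPM (1.29 ± 0.18). Batf and Stat3 were called, but not by more than 2-fold. Hif1a rose by 2.40 ± 0.19 and Fosl2, a restraining AP-1 factor, by 3.08 ± 0.23. Ikzf3, at 174 and 142 CPM in naive and 207 and 164 CPM in Th17 libraries, was not called (adjusted p = 0.28). Runx1 (-0.49 ± 0.16, or adjusted p = 0.065 without naive library 1, adjusted p = 0.07 without Th17 library 1, adjusted p = 0.081 without Th17 library 5) and Nfkbiz (-0.51 ± 0.16, or adjusted p = 0.1 without naive library 1, adjusted p = 0.055 without Th17 library 1, adjusted p = 0.093 without Th17 library 5) were lower, and neither was called with scaling by total count.

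Of 15 factors and cytokines of rival helper lineages, 11 passed the filter, 3 of them were higher and 6 lower, with a median log2 fold change of -1.31. Gata3, the Th2 factor, stood at 37.7 and 33.7 CPM in naive and 2.29 and 5.43 CPM in Th17 libraries (-3.21 ± 0.30, or -3.96 without Th17 library 5, adjusted p = 4.4e-07). Foxp3, the Treg factor, stood at 15 and 13.4 CPM in naive and 0.904 and 0.479 CPM in Th17 libraries, and Eomes, a factor of cytotoxic and memory cells, fell from 4.26 and 5.77 CPM to 2 counts over both Th17 libraries (ratio 93.8, 95% interval 25.5 to 781). Tbx21, the Th1 factor, was at 0.373 to 2.13 CPM in the 4 libraries (-1.56 ± 0.46, or adjusted p = 0.054 without naive library 5, -2.33 without Th17 library 1, adjusted p = 0.093 without Th17 library 5). Runx3 was higher (1.25 ± 0.18), and Bcl6, the factor of follicular helper cells, was at 23.6 and 18.3 CPM in naive and 26.9 and 29.6 CPM in Th17 libraries and not called (adjusted p = 0.076). Ifng had 8 and 10 counts in naive and 0 in Th17 libraries, and Il4 1 and 1 against 9 and 30, and neither passed the filter.

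The target genes of Ahr that passed the filter were higher, as was Ahr itself. Of 8 listed targets and partners 6 passed the filter, 3 through Th17 libraries alone, and 5 were higher and 0 lower, with a median log2 fold change of 5.41, or 1 lower without naive library 5. Those 3 were Cyp1b1, Cyp1a1 and Ahrr, so the filter favoured a rise in them. The 6 also hold the partners Arnt and Arnt2. The listed targets Aldh3a1, with 2 and 1 counts in Th17 libraries, and Ugt1a6a, with 4 and 6, did not pass. The cytochrome P450 genes Cyp1b1 and Cyp1a1, which break down Ahr ligands, were both higher. Cyp1b1 rose from 0.258 and 0.344 to 193 and 159 CPM (9.16 ± 0.30), and Cyp1a1 from 0.387 and 0.137 to 87.2 and 78.9 CPM (8.25 ± 0.33, or 9.17 without naive library 1). Ahrr, the repressor that Ahr induces, had 1 count over the naive libraries and 34.7 and 32.5 CPM in Th17 libraries (ratio 1010.3, 95% interval 181 to 39937). Tiparp went from 25.5 and 32 to 52.8 and 71.9 CPM (1.12 ± 0.19). Arnt, the subunit Ahr binds DNA with, was at 86.7 and 72.7 CPM in naive and 59.9 and 69.2 CPM in Th17 libraries (adjusted p = 0.11).

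**Figure D2:**
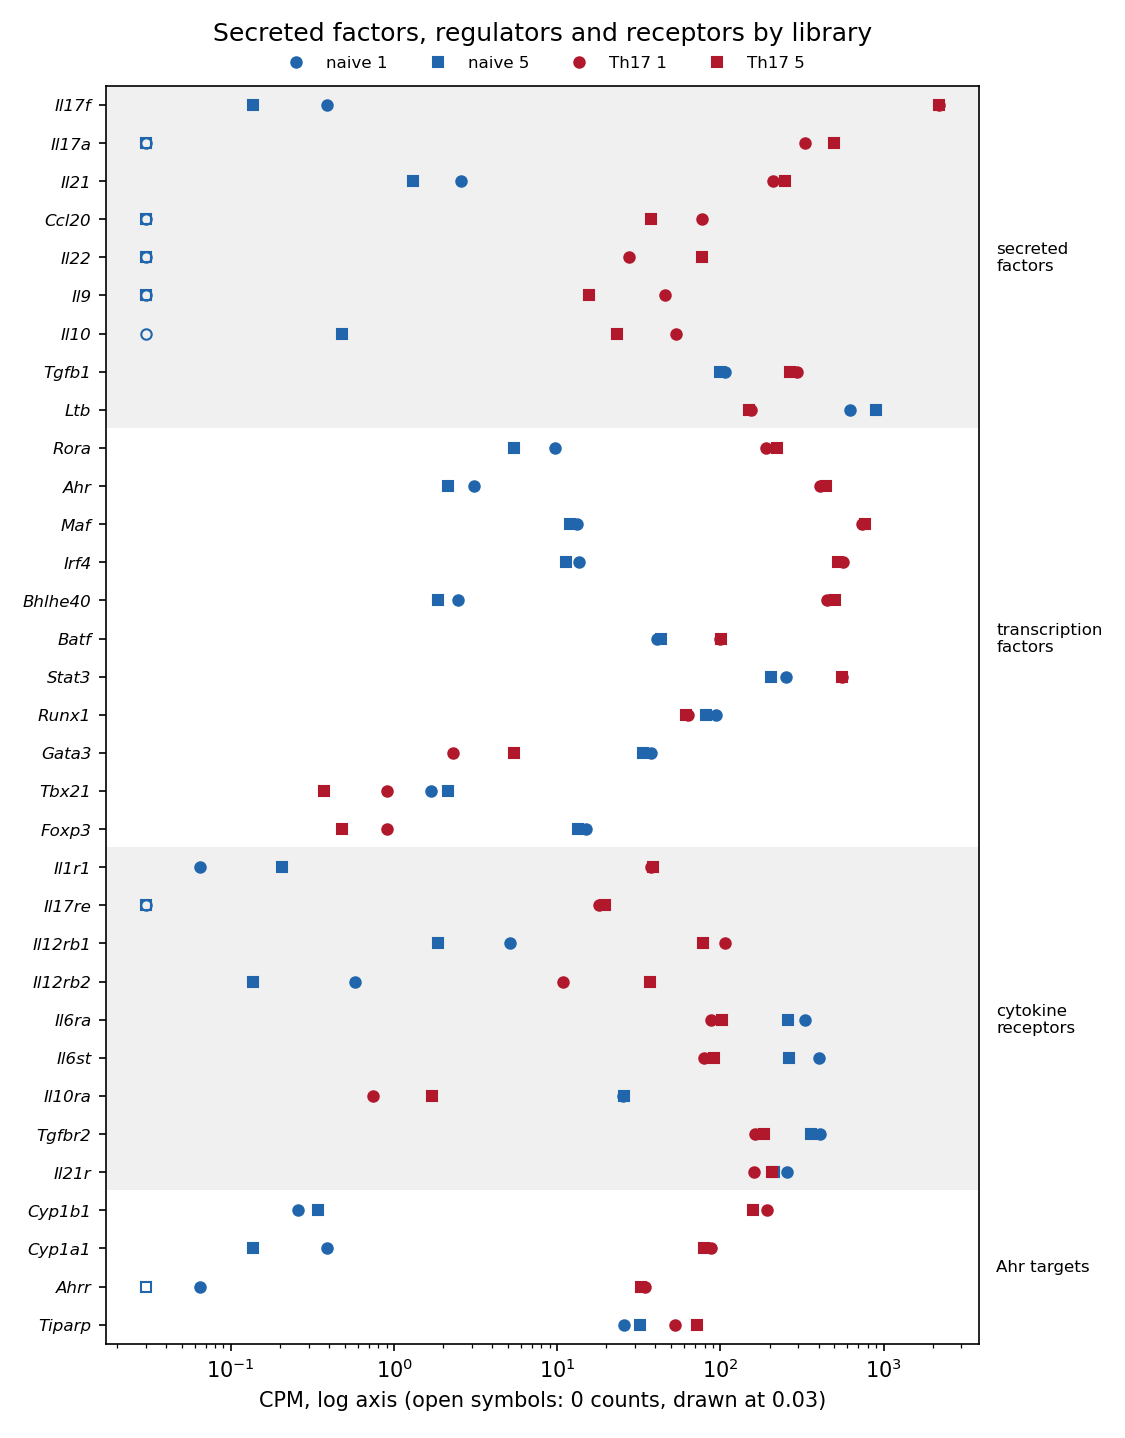
CPM (log axis) of secreted factors, transcription factors, cytokine receptors and Ahr targets in each library, with naive libraries in blue and Th17 libraries in red, circles for library 1 and squares for library 5, and open symbols for 0 counts. Ahr, Maf, Irf4 and Bhlhe40 are higher in Th17 libraries, while Il6ra, Il6st, Il10ra, Tgfbr2, Ltb, Gata3 and Foxp3 are lower in Th17 libraries.

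Receptors changed in both directions. Of 30 listed receptor genes 29 passed the filter, 5 of them through a single cell type, and 9 were higher and 15 lower, with a median log2 fold change of -0.60. The share of higher genes, 31%, was near the 30.3% of all tested genes, while the share of lower genes was 51.7% against 29.3%. Il1r1, the signalling receptor for interleukin-1, rose from 0.0645 and 0.206 to 37.8 and 38.8 CPM (8.09 ± 0.42, or 7.49 without naive library 1, 9.07 without naive library 5, adjusted p = 6.2e-10), and its decoy Il1r2 from 0.516 and 0.481 to 20.0 and 23 CPM (5.41 ± 0.37). Il23r had 3 counts over the naive libraries and 13.8 and 11.9 CPM in Th17 libraries (ratio 129, 95% interval 43.9 to 628), and Il12rb1, its partner chain, rose from 5.16 and 1.86 to 107 and 78.7 CPM (4.71 ± 0.33, or 5.64 without naive library 1). Il17re, a receptor chain for interleukin-17C, had 0 naive counts and 18.1 and 19.7 CPM in Th17 libraries, at least 94.6-fold higher. Il12rb2, the chain specific to the interleukin-12 receptor, stood at 0.580 and 0.137 CPM in naive and 10.9 and 37 CPM in Th17 libraries (6.01 ± 0.64, or 7.37 without naive library 1, 5.35 without naive library 5, 6.64 without Th17 library 1, 4.87 without Th17 library 5).

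The receptor for interleukin-6, a cytokine that starts the lineage, was lower. Il6ra fell from 332 and 259 to 87.2 and 102 CPM (-1.64 ± 0.17, adjusted p = 1.1e-06), and Il6st, its signalling chain gp130, from 404 and 264 to 79.1 and 91.9 CPM (-1.96 ± 0.21). Il10ra fell from 25.5 and 25.6 to 0.745 and 1.70 CPM (-4.38 ± 0.28, or -5.09 without Th17 library 5), Il27ra from 396 and 317 to 76.2 and 89.6 CPM (-2.10 ± 0.18) and Il7r, the survival receptor of naive cells, from 759 and 868 to 192 and 332 CPM (-1.63 ± 0.23). The TGF-β receptor gene Tgfbr2 was lower (-1.15 ± 0.17). Tgfbr1 was at 46.5 and 43.9 CPM in naive and 46.5 and 40.7 CPM in Th17 libraries (adjusted p = 0.82). Il21r, at 256 and 212 CPM in naive and 161 and 209 CPM in Th17 libraries, was not called.

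Among 21 genes of JAK-STAT signalling, 9 were higher and 4 lower, with a median of 0.27, or 2 lower with total counts. The feedback inhibitors that STAT5 induces were higher, with Socs2 at 2.32 and 1.37 CPM in naive and 87.4 and 39.8 CPM in Th17 libraries (5.09 ± 0.37, or 4.42 without Th17 library 1) and Cish at 24.1 and 17.1 CPM in naive and 176 and 183 CPM in Th17 libraries (3.12 ± 0.19). Socs3, which restrains Stat3, was lower (-0.76 ± 0.21, or adjusted p = 0.11 without naive library 1, adjusted p = 0.11 without Th17 library 1). The kinase genes moved apart, since Jak1 fell from 1083 and 1073 to 353 and 375 CPM (-1.57 ± 0.18, adjusted p = 3.6e-06) and Jak2 and Jak3 rose by 1.25 ± 0.16 and 1.09 ± 0.21. Stat4, which carries the interleukin-12 signal, fell from 53.8 and 56.9 to 10.3 and 19 CPM (-1.92 ± 0.25).

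Most listed homing and adhesion genes were lower in Th17 cells, and more chemokine receptors and chemokines were higher than lower. Of 20 chemokine receptors and chemokines 15 passed the filter, 3 through a single cell type, and 8 were higher and 4 lower, with a median of 2.12. Ccr6, the receptor of Ccl20, rose from 0.645 and 0.412 to 34.7 and 32.1 CPM (5.95 ± 0.36, adjusted p = 3.7e-09) and Ccr4, a skin-homing receptor, from 2.45 and 1.37 to 126 and 112 CPM (5.95 ± 0.25). Ccr9, a gut and thymus receptor, fell from 10.8 and 10.2 to 1.01 and 0.373 CPM (-3.91 ± 0.34, or -4.79 without Th17 library 1) and Cxcr4 from 184 and 217 to 41.2 and 58.2 CPM (-2.01 ± 0.18). Of 16 homing and adhesion genes all passed, with 5 higher, 11 lower and a median of -1.90. Itga4, the α4 integrin chain, fell from 482 and 377 to 1.60 and 4.79 CPM (-7.07 ± 0.41, or -8.07 without Th17 library 5), its partner Itgb7 from 817 and 745 to 198 and 246 CPM (-1.81 ± 0.19), and S1pr1, the receptor for exit from lymph nodes, from 473 and 562 to 67.3 and 79.4 CPM (-2.82 ± 0.18). Cd44, an adhesion receptor of activated cells, rose from 14.6 and 19.2 to 109.7 and 182 CPM (3.11 ± 0.26).

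Of 15 checkpoint and costimulation receptors 14 passed the filter, with 8 higher, 5 lower and a median of 0.80. Icos rose from 51.5 and 51.3 to 214 and 297 CPM (2.31 ± 0.18), Ctla4 by 4.28 ± 0.21, and Cd80 and Cd86, ligands usually named for antigen-presenting cells, by 4.55 ± 0.33 and 2.42 ± 0.22. Of a pair of receptors for the same ligand, Cd226 fell from 51 and 65.4 to 3.72 and 6.87 CPM (-3.46 ± 0.29) and Cd96 from 149 and 171 to 12.5 and 29.3 CPM (-2.93 ± 0.30, or -3.68 without Th17 library 5). Of 19 TNF superfamily genes, 4 of which passed through a single cell type, 10 were higher and 5 lower, with a median of 0.48. Tnfrsf8, which encodes CD30, had 2 counts over the naive libraries and 37.3 and 46.9 CPM in Th17 libraries (ratio 632, 95% interval 175 to 5226), and Tnfrsf4, which encodes OX40, rose from 13.1 and 15 to 188 and 219 CPM (3.86 ± 0.18). Cd27 fell from 269 and 282 to 5.11 and 12.8 CPM (-4.94 ± 0.31, or -5.75 without Th17 library 5, adjusted p = 4.5e-09), Cd40lg from 72.7 and 90.9 to 17.1 and 21.4 CPM (-2.09 ± 0.20), and Fasl from 5.93 and 9.96 CPM to 2 counts over both Th17 libraries (ratio 148, 95% interval 40.6 to 1230.3).

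Antigen receptor response factors were mostly lower in Th17 cells, while most NF-κB genes were higher. The list of response factors holds immediate early genes, which antigen induces rapidly, and Nfat and Tox genes. Of 18 antigen receptor response factors 17 passed the filter, with 4 higher, 10 lower and a median of -0.72. Without either naive library 2 were higher. Fos fell from 468 and 571 to 1.54 and 1.92 CPM (-8.22 ± 0.24, adjusted p = 1.2e-11), Fosb from 60.4 and 77.5 to 1.01 and 1.44 CPM (-5.81 ± 0.27), Egr3 from 31.5 and 24.6 to 2.82 and 1.81 CPM (-3.60 ± 0.25) and Jun from 529.9 and 514 to 124 and 119 CPM (-2.10 ± 0.18). Of the 3 Nr4a factors, 1 was higher and 2 were lower. Junb, the AP-1 subunit that pairs with Batf, was at 1132 and 1344 CPM in naive and 936 and 887 CPM in Th17 libraries and was not called (adjusted p = 0.068). Nfatc2 rose from 65.3 and 54.4 to 211 and 216 CPM (1.84 ± 0.16). The heat shock gene Hspa1b, another gene of rapid induction, moved with them, from 1811 and 1661 to 5.27 and 4.26 CPM (-8.51 ± 0.30, adjusted p = 2.5e-11). Of 12 NF-κB subunits and inhibitors, 10 were higher and 0 lower, with a median of 0.80, or 1 lower without naive library 5. In the pair of the non-canonical pathway, Nfkb2 rose from 58.8 and 53.7 to 414 and 369.5 CPM (2.80 ± 0.18) and Relb from 40.8 and 33.9 to 139 and 113 CPM (1.75 ± 0.17). Bcl3 rose by 2.53 ± 0.21. Rel, at 78 and 72.7 CPM in naive and 77.1 and 79.7 CPM in Th17 libraries, was not called (adjusted p = 0.76).

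Most interferon-induced factors and GTPases were lower in Th17 cells. Of 25 such genes, 19 were lower and 2 higher, with a median log2 fold change of -2.68. Irf7, the amplifier of the type I interferon response, fell from 97.9 and 97 to 1.17 and 2.50 CPM (-5.72 ± 0.28, or -6.37 without Th17 library 5, adjusted p = 3.8e-10), and Irf1 from 269 and 278 to 39.5 and 46 CPM (-2.68 ± 0.17). Among guanylate-binding proteins, which attack vacuoles of intracellular pathogens, Gbp9 fell from 229 and 207 to 2.82 and 7.24 CPM (-5.43 ± 0.34, or -6.27 without Th17 library 5) and Gbp7 from 122 and 109.7 to 1.06 and 3.04 CPM (-5.82 ± 0.37, or -6.76 without Th17 library 5). Other members did not follow, since Gbp5, at 31.3 and 21.9 CPM in naive and 29.7 and 34.1 CPM in Th17 libraries, and Gbp3, at 11.2 and 9.62 CPM in naive and 8.67 and 11.4 CPM in Th17 libraries, were not called. Of factors better known from myeloid cells, Irf5 rose from 3.42 and 2.54 to 11.6 and 14.1 CPM (2.11 ± 0.23) and Irf8 from 14 and 11.8 to 33.5 and 30.3 CPM (1.30 ± 0.18). Gbp, Tgtp and Ifi genes are families of near-identical copies, whose shared reads the counting may have split.

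Several of the largest falls lay in a cluster of interferon-induced genes on chromosome 1, between 173468485 and 173698395 (mm10), which encodes DNA sensors of the PYHIN family. Ifi213 and Ifi208, with 0 counts in both Th17 libraries, had the largest fitted falls of all tested genes. Ifi213 stood at 343 and 310.4 CPM in naive libraries (at least 2045-fold lower) and Ifi208 at 183 and 178 CPM (at least 1132-fold). Ifi206 fell from 187 and 219 CPM to 1 and 2 counts (ratio 2539, 95% interval 868 to 12317), Ifi209 from 339.5 and 391 to 0.426 and 0.373 CPM (-9.81 ± 0.30) and Ifi214 from 58.1 and 72.2 CPM to 1 count over both Th17 libraries (ratio 2439, 95% interval 437 to 96380.2). Outside the cluster, Ifit1bl1 fell from 84.2 and 102 CPM to 0 counts, at least 582-fold lower, and Rtp4, a chaperone gene induced by interferon, from 42.4 and 62.3 CPM to 1 count (ratio 1954, 95% interval 350.2 to 77222).

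Interferon acts through a promoter element, the interferon-stimulated response element, searched here as GAAANNGAA on either strand in the 250 bases before the start. It was in 10 of the 17 listed interferon genes with a RefSeq window (58.8%), against 7.5% of tested genes with a window, 12.1% of those over 2-fold lower and 7.06% of those over 2-fold higher. Gbp7 and Irgm1, which were lower, and Gbp5, which was not called, are shown because all 3 hold it. Their windows are chr3:142530086-142530335 on the forward, chr11:48871421-48871670 on the reverse and chr3:142496684-142496933 on the forward strand, with matches in capitals, and Irgm1 has 2 that overlap.
Gbp7: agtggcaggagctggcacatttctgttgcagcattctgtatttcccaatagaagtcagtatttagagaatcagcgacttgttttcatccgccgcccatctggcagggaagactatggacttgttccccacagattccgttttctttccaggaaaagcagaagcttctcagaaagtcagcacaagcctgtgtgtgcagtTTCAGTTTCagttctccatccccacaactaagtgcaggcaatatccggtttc
Irgm1: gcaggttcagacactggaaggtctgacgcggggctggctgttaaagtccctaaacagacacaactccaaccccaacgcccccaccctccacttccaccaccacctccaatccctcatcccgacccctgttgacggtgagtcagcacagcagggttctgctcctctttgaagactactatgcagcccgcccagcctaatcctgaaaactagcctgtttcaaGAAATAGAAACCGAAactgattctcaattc
Gbp5: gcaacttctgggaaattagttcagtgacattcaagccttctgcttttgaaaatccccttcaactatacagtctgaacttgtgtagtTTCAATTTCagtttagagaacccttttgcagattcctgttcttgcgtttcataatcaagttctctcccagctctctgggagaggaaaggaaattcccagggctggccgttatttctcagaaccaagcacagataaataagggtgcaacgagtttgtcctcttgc
The match in Gbp7 begins 52 bases before the start and that in Gbp5 164 bases before it, and Irgm1 went from 115 and 122 to 18.7 and 29.8 CPM (-2.29 ± 0.20).

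Genes of antigen presentation were lower as well. Of 21 MHC and antigen processing genes, 19 were lower and 1 higher, with a median of -1.81, or 2 higher with total counts. Of the classical class I genes, H2-K1 fell from 4164 and 4221 to 962 and 1144 CPM (-1.99 ± 0.23) and H2-D1 from 2619 and 2941 to 994 and 1044 CPM (-1.45 ± 0.21). B2m, their common light chain, was lower too (-1.87 ± 0.24). The non-classical gene H2-Q7 fell from 901 and 802 to 31.9 and 61.6 CPM (-4.19 ± 0.28), and the class II gene H2-Aa from 23.2 and 32.2 to 0.638 and 0.692 CPM (-5.36 ± 0.36, adjusted p = 1.0e-08). Cd74, the invariant chain of class II, was higher, at 58.7 and 89.1 CPM in naive and 160.1 and 169 CPM in Th17 libraries (1.16 ± 0.19). Class II genes are also those of B and myeloid cells, whose summed markers were lower in Th17 libraries as given above.

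Genes that hold T cells at rest were mostly lower in Th17 cells. Of 27 quiescence and growth restraint genes, 20 were lower and 5 higher, with a median of -1.02, and without naive library 5 the number higher was 3. Klf2, which maintains S1pr1, fell from 415 and 404 to 3.83 and 5.38 CPM (-6.47 ± 0.23, adjusted p = 2.9e-11), and Klf3 from 215 and 175 to 3.35 and 5.38 CPM (-5.48 ± 0.23). Tsc22d3, a glucocorticoid-induced inhibitor, fell from 677 and 708 to 24.9 and 32.7 CPM (-4.59 ± 0.20) and Txnip, which limits glucose uptake, from 979 and 1076 to 81.6 and 217 CPM (-2.78 ± 0.34, or -3.65 without Th17 library 5). Bach2 rose from 156 and 101 to 259 and 242 CPM (0.97 ± 0.20) and Satb1 from 793 and 666 to 1348 and 1434 CPM (0.93 ± 0.19). Foxo1, an upstream activator of Klf2, was at 239 and 181 CPM in naive and 189 and 208 CPM in Th17 libraries and not called (adjusted p = 0.72). All 8 tested Gimap genes, GTPases of lymphocyte survival that form 1 gene cluster, were lower, with a median of -2.19. They ranged from Gimap9 (-1.28 ± 0.20) to Gimap7 (-4.02 ± 0.29, or -4.62 without Th17 library 5). Gimap6 went from 1103 and 1125 to 86.6 and 114 CPM.

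Of 21 genes of the Bcl2 family and of apoptosis 19 passed the filter, with 12 higher and 5 lower and a median of 0.87. The number lower was 3 without naive library 1, 2 without Th17 library 1 and 3 with total counts. Bcl2l1, which encodes Bcl-xL, rose from 15.2 and 15.2 to 220.4 and 193 CPM (3.77 ± 0.17, adjusted p = 1.9e-10). Mcl1 fell from 772 and 826 to 301 and 305 CPM (-1.40 ± 0.18). The pro-apoptotic Pmaip1, which encodes the Mcl-1 antagonist Noxa, rose from 4.45 and 3.99 to 92.7 and 85.2 CPM (4.40 ± 0.20) and Bmf from 9.99 and 6.80 to 66.6 and 56.7 CPM (2.87 ± 0.27).

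**Figure D3:**
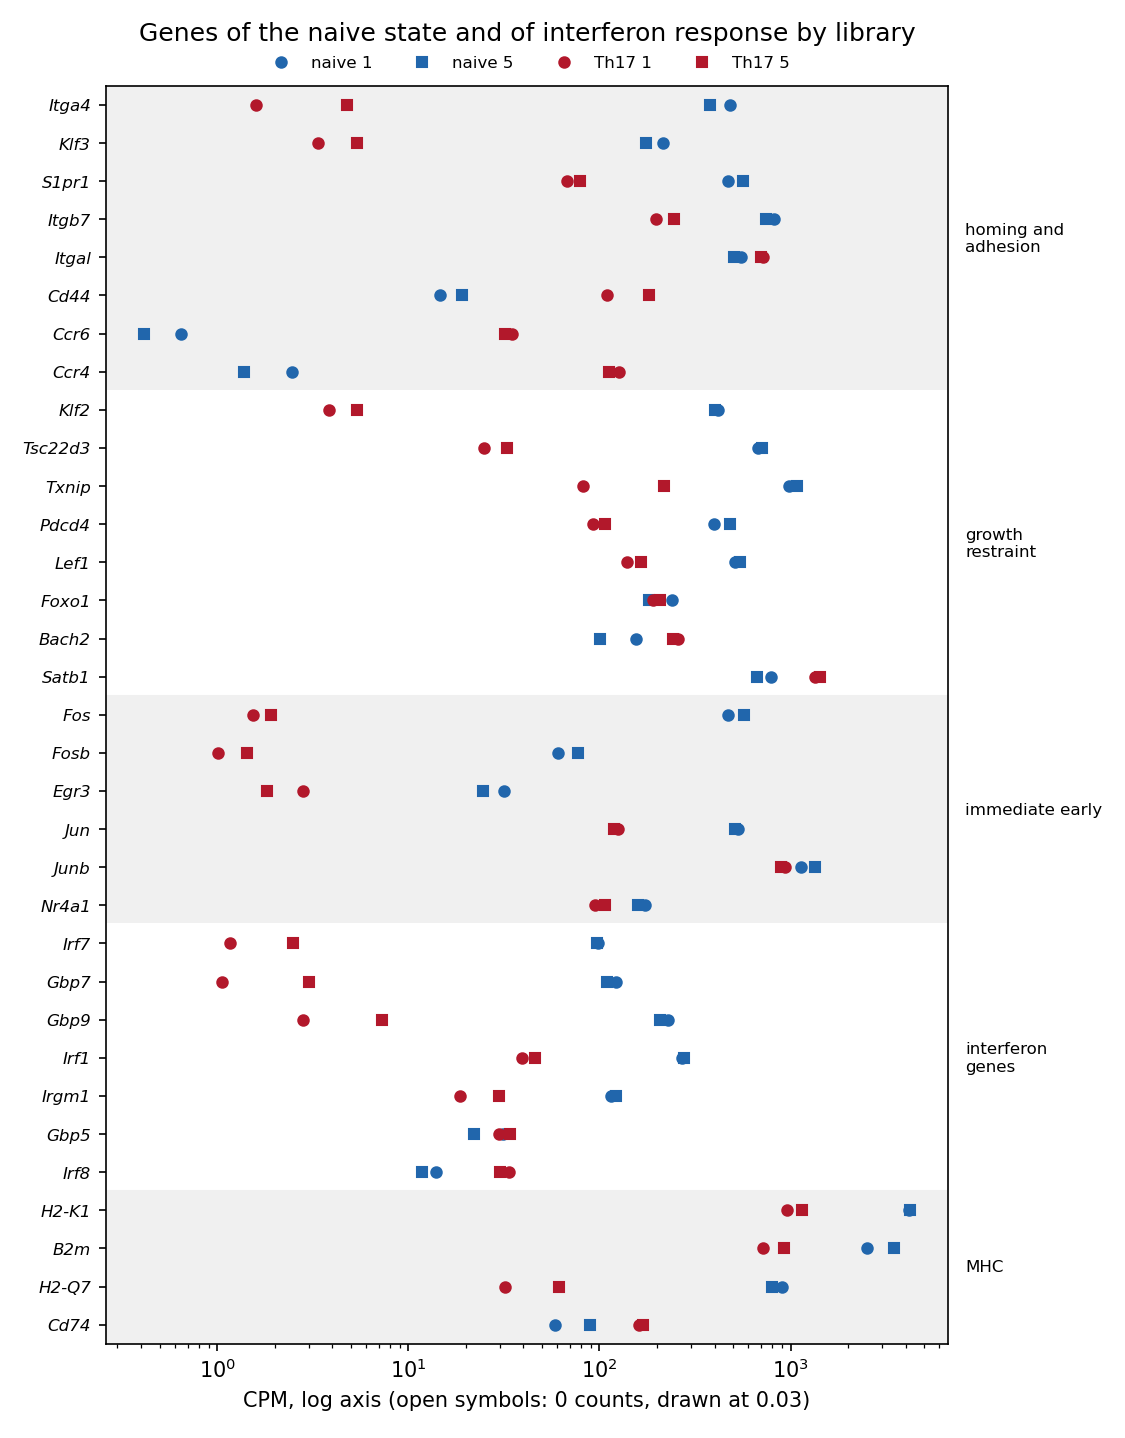
CPM (log axis) of homing, growth restraint, immediate early, interferon and MHC genes in each library, with naive libraries in blue and Th17 libraries in red, circles for library 1 and squares for library 5. Itga4, Klf2, Fos and Irf7 lie more than 10-fold apart between types, and Foxo1 and Gbp5 overlap.

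Most genes of the cell cycle were higher in Th17 cells. Of 22 cyclins, Cdks and Cdk inhibitors 20 passed the filter, with 15 higher, 1 lower and a median of 2.40, or 2 lower without naive library 1. Ccnb1, the mitotic cyclin, rose from 1.16 and 0.962 to 217 and 197 CPM (7.59 ± 0.34) and Cdk6 from 26.1 and 19.4 to 357 and 357 CPM (3.97 ± 0.19). Ccnd2, already at 442 and 448 CPM in naive cells, was at 462 and 393 CPM and not called. The inhibitors went opposite ways. Cdkn1a, which encodes p21, rose from 0.838 and 0.481 to 476 and 531 CPM (9.55 ± 0.29, adjusted p = 1.2e-11), the largest change of the list, and Cdkn1b, which encodes p27, fell from 297 and 334 to 139 and 167 CPM (-1.04 ± 0.16).

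Of 21 E2F, retinoblastoma, Myc and Mxd factors 20 passed, with 15 higher, 2 lower and a median of 2.08. With any single naive or Th17 library left out, or with total counts, 1 was lower. The activator E2f1 rose from 3.48 and 3.44 to 64.3 and 52 CPM (4.07 ± 0.24) and the late repressor E2f8 from 0.709 and 0.137 to 56.9 and 52.8 CPM (6.97 ± 0.40, or 8.57 without naive library 1, 6.26 without naive library 5). Myc rose from 88.7 and 91.1 to 313 and 321 CPM (1.82 ± 0.17), its antagonist Mxd1 from 37.3 and 29 to 267 and 251 CPM (2.97 ± 0.19), and their common partner Max fell from 163 and 184 to 77.1 and 75.5 CPM (-1.19 ± 0.16). Of 26 kinetochore and cytokinesis genes, 3 of which passed through Th17 libraries alone, 25 were higher and 1 lower, with a median of 5.13, or 0 lower without naive library 5, without Th17 library 1 and with total counts. Bub1, a spindle checkpoint kinase, rose from 0.387 and 0.481 to 80.2 and 83.3 CPM (7.54 ± 0.34, adjusted p = 1.9e-10) and Cenpf from 1.35 and 0.687 to 186 and 192 CPM (7.51 ± 0.36), and Pttg1, which encodes securin, was the gene that fell (-0.53 ± 0.22, or adjusted p = 0.33 without naive library 5, adjusted p = 0.28 without Th17 library 1).

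Of 36 DNA replication genes, 30 were higher and 3 lower, with a median of 1.92, or 1 lower with total counts. Of the loading and firing factors, Mcm10 rose from 0.322 and 0.550 to 90.7 and 83.8 CPM (7.63 ± 0.36) and Cdc6 from 1.03 and 1.58 to 83 and 69.8 CPM (5.87 ± 0.35). The 6 subunits of the MCM helicase rose by 1.79 (Mcm2) to 3.34 (Mcm3). Among subunits of the origin recognition complex, Orc1 rose (5.46 ± 0.33), Orc6 rose (1.47 ± 0.19), and Orc4 and Orc5 fell (-0.61 ± 0.16 and -0.92 ± 0.20). Orc3 was lower by less (-0.38 ± 0.15, or adjusted p = 0.13 without naive library 5, adjusted p = 0.18 without Th17 library 1, adjusted p = 0.12 without Th17 library 5). E2F sites, searched as TTTGGCGC or TTTCCCGC on either strand in the 250 bases before the start, were in 7 of the 31 replication genes with a window (22.6%), against 2.89% of tested genes with a window, 3.04% of those over 2-fold higher and 1.36% of those over 2-fold lower. Cdc6 and Mcm6, which rose, and Orc3, which fell, are shown because all 3 hold a site, Mcm6 holding 2. The windows are chr11:98907901-98908150 on the forward, chr1:128359706-128359955 on the reverse and chr4:34614943-34615192 on the reverse strand, with sites in capitals.
Cdc6: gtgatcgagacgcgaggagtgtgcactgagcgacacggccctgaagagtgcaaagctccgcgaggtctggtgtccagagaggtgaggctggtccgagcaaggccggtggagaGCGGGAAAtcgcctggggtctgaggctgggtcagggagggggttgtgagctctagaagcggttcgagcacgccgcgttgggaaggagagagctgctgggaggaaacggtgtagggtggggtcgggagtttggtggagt
Mcm6: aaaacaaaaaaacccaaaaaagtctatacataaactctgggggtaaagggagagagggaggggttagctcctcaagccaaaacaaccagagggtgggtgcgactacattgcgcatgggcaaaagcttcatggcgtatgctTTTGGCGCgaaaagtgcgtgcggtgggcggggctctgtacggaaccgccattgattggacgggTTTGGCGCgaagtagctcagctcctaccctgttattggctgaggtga
Orc3: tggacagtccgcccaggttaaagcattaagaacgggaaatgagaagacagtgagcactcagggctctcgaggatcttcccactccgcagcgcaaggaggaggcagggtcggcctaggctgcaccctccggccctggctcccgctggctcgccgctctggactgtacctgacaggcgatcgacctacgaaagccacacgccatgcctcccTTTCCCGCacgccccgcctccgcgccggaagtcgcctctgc
The site in Cdc6 begins 138 and that in Orc3 41 bases before the start, and Mcm6 went from 85.1 and 90.2 to 376 and 344 CPM (2.04 ± 0.17). Of 3 further motifs, TTTGAA of late cell cycle genes was in 13% of tested genes with a window and in 14.3% and 14.4% of those over 2-fold higher and lower, TTGCGTG, bound by Ahr, in 1.61%, 1.55% and 1% in that order, and TGATGNAAT, bound by Atf4, in 0.462%, 0.688% and 0.364%.

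Most genes for the synthesis of serine, folate cofactors and charged tRNAs, and for nucleotides, were higher in Th17 cells. Of 21 nucleotide synthesis genes, 14 were higher and 3 lower (median 0.58), among them the thymidylate synthase gene Tyms, at 5.87 and 9.14 CPM in naive and 71.6 and 62.8 CPM in Th17 libraries (3.16 ± 0.28). Isoenzymes of guanine and cytidine nucleotide synthesis moved apart, since Impdh2 rose by 1.42 ± 0.16 and Impdh1 fell (-0.92 ± 0.16). Ctps rose by 1.50 ± 0.18 and Ctps2 fell (-0.61 ± 0.15, or adjusted p = 0.056 without Th17 library 1). Of 13 serine and one-carbon genes, 10 were higher and 1 lower (median 1.25), among them Psat1 of serine synthesis, at 39.5 and 44.2 CPM in naive and 289 and 219 CPM in Th17 libraries (2.60 ± 0.19), and Shmt2 of the mitochondrial folate cycle, at 88.7 and 86.2 CPM in naive and 357 and 274 CPM in Th17 libraries (1.85 ± 0.18). Of 20 cytosolic tRNA synthetases, 17 were higher and 1 lower (median 0.77), with Aars, the alanyl synthetase, first, at 67.4 and 52 CPM in naive and 372 and 268 CPM in Th17 libraries (2.42 ± 0.20, adjusted p = 9.0e-08).

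Targets of Atf4, the factor of amino acid stress, were mostly higher, and Atf4 itself was not called. Of 17 genes, 4 of which passed through Th17 libraries alone, 15 were higher and 1 lower, with a median of 2.57, or 0 lower without naive library 5, without either Th17 library and with total counts. Asns, asparagine synthetase, rose from 0.193 and 0.206 to 135 and 103 CPM (9.17 ± 0.38, adjusted p = 8.0e-11) and Sesn2, a sensor that restrains mTORC1, from 2.51 and 3.37 to 98.4 and 121 CPM (5.22 ± 0.23). Chac1, which breaks down glutathione, had 0 naive counts and 17.1 and 11.7 CPM in Th17 libraries, at least 72-fold higher. Atf4 itself was at 236 and 312 CPM in naive and 291 and 242 CPM in Th17 libraries (-0.04 ± 0.18, adjusted p = 0.86), and Ddit3, its partner in cell death, was lower (-0.49 ± 0.19, or adjusted p = 0.2 without naive library 5, adjusted p = 0.077 without Th17 library 1, adjusted p = 0.16 without Th17 library 5).

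Central metabolism changed gene by gene. Of 28 genes of the pentose phosphate pathway, the TCA cycle and glutamine use, 11 were higher and 5 lower (median 0.35), and with scaling by total count 16 and 0. The number lower was 1 without naive library 5, 0 without Th17 library 1 and 2 without Th17 library 5. Of the transaminases, Gpt2 rose from 1.35 and 1.51 to 28.4 and 22.7 CPM (4.15 ± 0.28) and Got2 from 58.8 and 60.7 to 238 and 245 CPM (2.02 ± 0.15). Of 17 fatty acid oxidation genes, 4 were higher and 3 lower (median 0.32), or 8 and 2 by total count, and Cpt1a, its rate-limiting gene, was at 58.4 and 49.5 CPM in naive and 62.4 and 82.2 CPM in Th17 libraries (adjusted p = 0.07). Of 17 polyamine and arginine genes 16 passed, with 9 higher and 2 lower (median 0.51). The number lower was 4 without naive library 1, and 1 without naive library 5, without either Th17 library and with total counts. Odc1, the first enzyme of polyamine synthesis, rose from 50.0 and 55.9 to 925 and 723 CPM (3.96 ± 0.21, adjusted p = 8.2e-10), and Smox, which oxidizes spermine, from 18.6 and 21 to 246 and 353 CPM (3.92 ± 0.21).

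Hypoxia genes were divided, though their share of lower genes, 27.8%, was near the 29.3% of all tested genes. Of 19 listed genes 18 passed, with 9 higher and 5 lower (median 0.54), or 3 lower without Th17 library 1 and with total counts. Egln3, an oxygen-sensing prolyl hydroxylase, rose from 0.580 and 1.79 to 189.8 and 199 CPM (7.37 ± 0.30, or 6.76 without naive library 1, 8.37 without naive library 5, adjusted p = 7.1e-11) and Vegfa from 2.00 and 2.75 to 34.9 and 35.6 CPM (3.89 ± 0.22). Pdk1, which diverts pyruvate from the mitochondrion and is a textbook hypoxia target, fell from 457 and 385 to 34.5 and 53 CPM (-3.27 ± 0.21, adjusted p = 7.7e-09), and Bnip3l, of mitochondrial clearance, was lower (-1.32 ± 0.19). Of 24 antioxidant genes, 10 were higher and 4 lower (median 0.27), or 1 lower without Th17 library 1 and 2 lower with total counts. The thioredoxin genes Txn1 and Txnrd1 rose, with Txn1 at 44.4 and 74.9 CPM in naive and 255 and 233 CPM in Th17 libraries (2.03 ± 0.21) and Txnrd1 at 70.1 and 65.5 CPM in naive and 217 and 201 CPM in Th17 libraries (1.62 ± 0.15). Gpx4 and Sod1 were not called.

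Of 22 genes of folding and stress in the endoplasmic reticulum, 13 were higher and 2 lower (median 0.52). The sensor genes of unfolded protein Atf6, Ern1 and Eif2ak3 rose, with Atf6 at 9.61 and 8.80 CPM in naive and 103 and 122 CPM in Th17 libraries (3.61 ± 0.19) and Ern1, which encodes IRE1α, at 16.4 and 10.7 CPM in naive and 41.3 and 48.4 CPM in Th17 libraries (1.72 ± 0.23). Hspa5, the main chaperone, was at 464 and 576 CPM in naive and 581 and 497 CPM in Th17 libraries (adjusted p = 0.83). Of 26 ribosome biogenesis genes, 6 were higher and 1 lower (median 0.30), a share of higher genes below that of all genes. This depended on scaling, since 19 were higher and 0 lower with total counts, and on libraries, since 10 were higher without naive library 1 and 3 without Th17 library 1, and 0 were lower without naive library 5 and without Th17 library 5. Nop2, a nucleolar methyltransferase, was higher (1.22 ± 0.17), and Fbl and Npm1 were not called. Of 23 proteasome genes, 7 were higher and 3 lower (median 0.21), or 15 and 2 with total counts, and without naive library 1 the median was -0.01. The number higher was 4 without naive library 1, 11 without naive library 5 and 4 without Th17 library 1, and 5 were lower without naive library 1. The 3 lower genes included Psme1 and Psme2, which encode the interferon-induced PA28 cap (-1.27 ± 0.19 and -1.13 ± 0.21), and Psme3, the nuclear cap gene, was higher (0.85 ± 0.16). Of 21 autophagy and lysosome genes, 6 were higher and 6 lower (28.6% each), near the 30.3% and 29.3% of all tested genes. Among them, Gabarapl1, an Atg8 homologue, rose from 2.00 and 1.37 to 104 and 113 CPM (6.0 ± 0.23, adjusted p = 5.0e-11). The list's median of -0.07 was 0.18 with total counts and 0.02 without naive library 5.

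**Figure D4:**
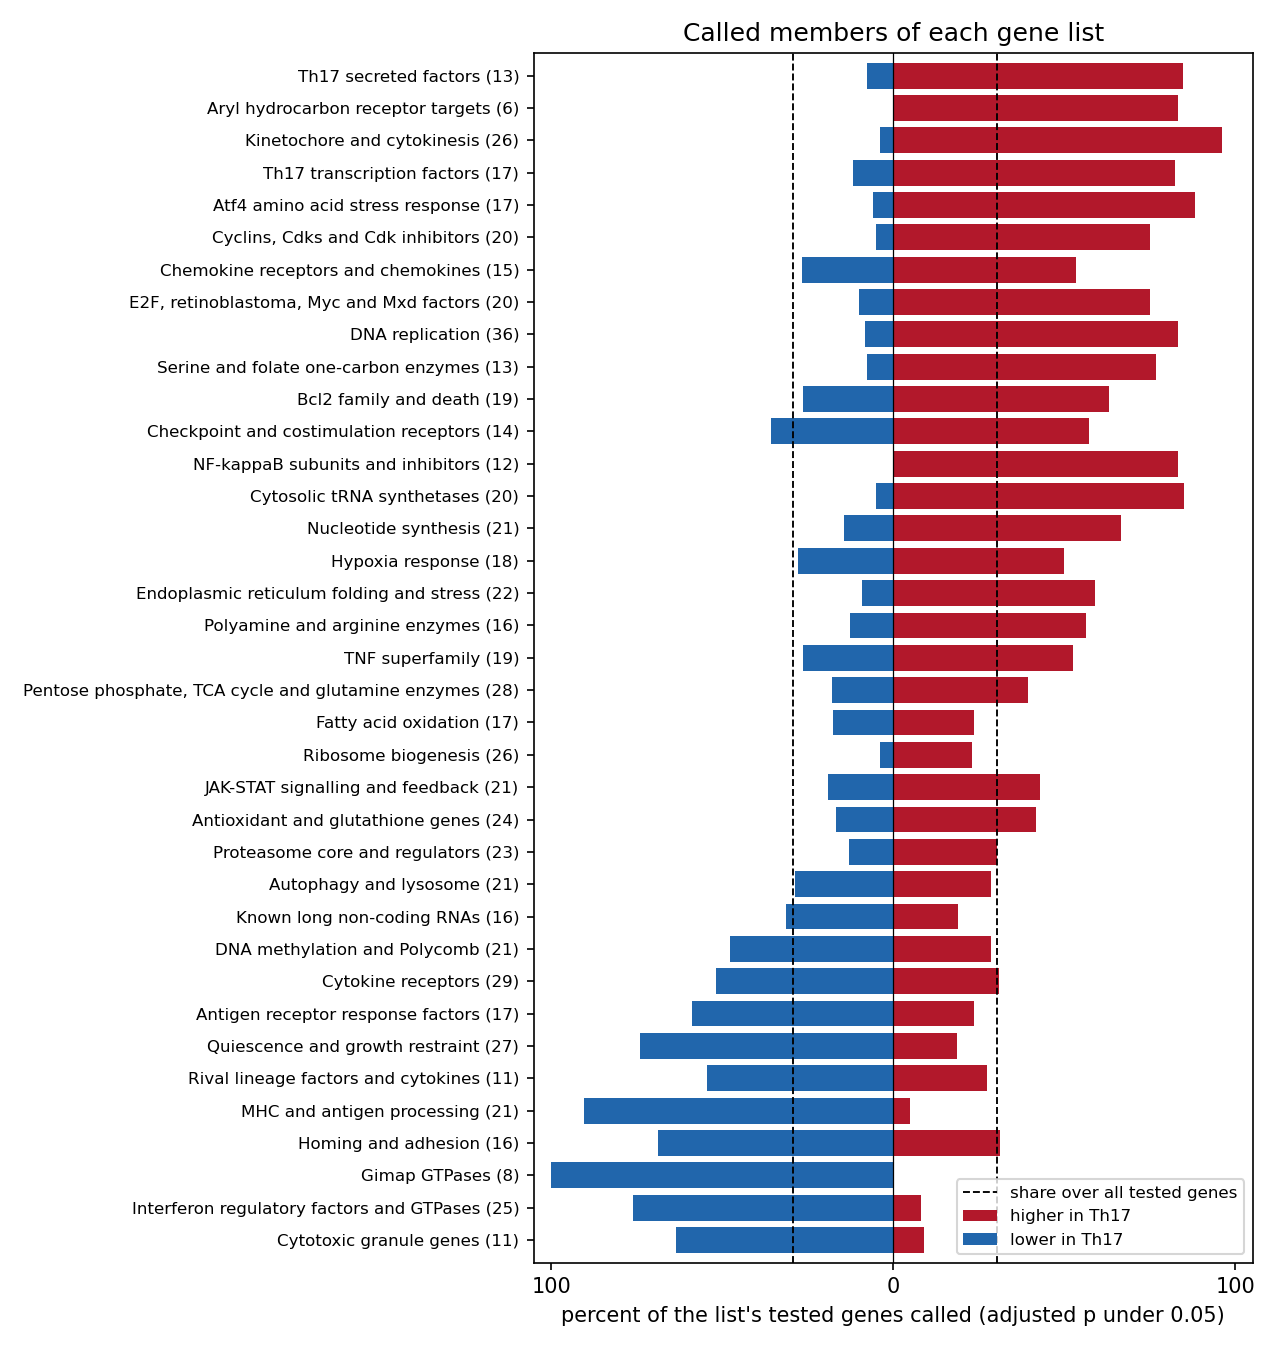
Percent of the tested genes of each list that were called higher (red, to the right) or lower (blue, to the left) in Th17 than in naive cells, sorted by the list's median log2 fold change, with the number of tested genes in brackets and dashed lines at the shares over all tested genes (30.3% and 29.3%). Kinetochore genes and Atf4 targets lie near the higher end, with 25 of 26 and 15 of 17 genes higher, and Gimap and MHC genes near the lower end, with 8 of 8 and 19 of 21 lower.

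Of 21 DNA methylation and Polycomb genes, 6 were higher and 10 lower, with a median of -0.41. The share of higher genes, 28.6%, was near the 30.3% of all tested genes, while the share of lower genes was 47.6% against 29.3%. Of the genes that copy methylation at replication, Uhrf1 rose from 6.13 and 4.67 to 387 and 341 CPM (6.07 ± 0.25) and Dnmt1 from 163 and 142 to 546 and 494 CPM (1.77 ± 0.17). Ezh2, the Polycomb methyltransferase, rose as well (2.64 ± 0.17). Tet1, which oxidizes methylcytosine, fell from 52.6 and 42.6 to 2.45 and 6.02 CPM (-3.49 ± 0.36, or -4.28 without Th17 library 5, adjusted p = 1.1e-06), and Cbx7, a Polycomb reader, from 319 and 232 to 95.4 and 94.2 CPM (-1.54 ± 0.20). Dnmt3a and Ezh1 were not called (adjusted p = 0.063 and 0.096).

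Of 12 granule genes 11 passed the filter, 4 through naive libraries alone, with 1 higher, 7 lower and a median of -3.07. The number higher was 2 without Th17 library 1 and with total counts, and 0 without Th17 library 5. Prf1, perforin, fell from 33.5 and 34.4 to 0.266 and 1.33 CPM (-5.40 ± 0.40, or -4.67 without Th17 library 1, -6.96 without Th17 library 5, adjusted p = 2.9e-08) and Gzmb from 2.45 and 2.82 to 0.266 and 0.320 CPM (-3.14 ± 0.43). These genes mark NK and CD8 T cells as well. The summed level of 4 NK genes was 21.4 and 37.7 CPM in naive and 26.5 and 43.8 CPM in Th17 libraries, most of it Klrd1. Of these, Ncr1 and Klrb1c were at 1.03 to 3.44 CPM in naive libraries and 0 counts in Th17 libraries, and Klrk1 was at 3.48 and 4.54 CPM in naive and 4.10 and 5.70 CPM in Th17 libraries. The CD8 genes Cd8a and Cd8b1 summed to 22.7 and 26.5 CPM against 11.2 and 13.4 CPM. Their part in the fall of granule genes was not tested.

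Of 20 known long non-coding RNAs 16 passed the filter, with 3 higher and 5 lower and a median of -0.30, or -0.04 with total counts. The number lower was 8 without naive library 1 and 3 without naive library 5. Mir155hg, the host transcript of microRNA-155, rose from 0.580 and 0.687 to 62.3 and 56.1 CPM (6.53 ± 0.34, adjusted p = 7.4e-10), Neat1, the scaffold of paraspeckles, by 1.06 ± 0.18, and Malat1 fell (-1.33 ± 0.28). Mir17hg, at 18 and 23.6 CPM in naive and 21.4 and 17.6 CPM in Th17 libraries, was not called. The 5 largest rises among genes of this class with a mean over 1 CPM had 0 naive counts. Gm36070 stood at 15.2 and 18.7 CPM in Th17 libraries (at least 84.7-fold higher) and Gm38411 at 8.67 and 13.2 CPM (at least 54.7-fold). Whether counting used strand is not stated, so reads of such genes and of genes on the opposite strand cannot be told apart. The others were Gm44851 at 22.8 and 14.4 CPM, 2900052L18Rik at 10.6 and 14 CPM and Gm29101 at 6.54 and 5.97 CPM. The largest falls were A530021J07Rik, from 16.8 and 23.7 CPM to 0 counts (at least 127-fold lower), and 1810006J02Rik, Gm11695, Gm568 and Gm43063, from between 1.92 and 10.7 CPM to 0 counts.

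Several of the largest rises were in genes that are not Th17 cytokines. Cpd, which encodes the secretory pathway enzyme carboxypeptidase D, went from 0.580 and 0.206 to 2067 and 2004 CPM (12.29 ± 0.37, or 13.22 without naive library 1, adjusted p = 1.2e-11). Pdpn, the membrane glycoprotein podoplanin, had 0 naive counts and 135 and 134 CPM in Th17 libraries, at least 674-fold higher. Ermn, a cytoskeletal gene known from oligodendrocytes, stood at 95.2 and 167 CPM (at least 657-fold), and the fatty acid desaturase gene Fads2 at 108 and 88.1 CPM (at least 490.1-fold). Receptors for 2 kinds of leukotriene rose from 0 naive counts, with Ltb4r1 at 59.5 and 62.3 CPM (at least 305-fold) and Cysltr1 at 36.3 and 49 CPM (at least 214-fold). Besides interferon genes, the largest falls included Dapl1, from 94 and 118 to 0.160 and 0.266 CPM (-8.91 ± 0.33) and the protein-coding gene Gm14085, from 107 and 99.4 to 0.106 and 0.320 CPM (-8.87 ± 0.76, or -9.83 without Th17 library 5).

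By gain in CPM, which is not scaled to gene length, Il17f was followed by Scd2, a stearoyl-CoA desaturase, at 67.1 and 69.2 CPM in naive and 2121 and 2108 CPM in Th17 libraries (4.95 ± 0.28), then Cpd, Il2ra, the intermediate filament gene Vim at 353 and 420.2 CPM in naive and 1740.3 and 1651 CPM in Th17 libraries (2.13 ± 0.24), and Top2a at 16.8 and 11.3 CPM in naive and 1206 and 1153 CPM in Th17 libraries (6.38 ± 0.32). The largest losses lay in abundant housekeeping transcripts, namely mt-Co1, from 17481 and 19314 to 5375 and 8359 CPM (-1.42 ± 0.30), Tpt1, from 7512 and 11092 to 1609 and 1990.1 CPM (-2.37 ± 0.28), mt-Cytb (-1.65 ± 0.31), Tmsb4x (-2.03 ± 0.27), Rplp1 (-1.98 ± 0.26) and Eef1a1 (-0.82 ± 0.29, or adjusted p = 0.16 without Th17 library 1, adjusted p = 0.051 without Th17 library 5).

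Of 142 tested T cell receptor segments, 126 were lower and 0 higher, with a median of -2.06. Of 9 genes of helper T cell identity, among them the constant segments Trac, Trbc1 and Trbc2, 8 were lower and 1 higher, and the delta chain segment Trdc fell from 17.6 and 19.2 to 1.38 and 1.01 CPM (-3.93 ± 0.30). The part of gamma-delta T cells in these falls was not tested. Of 13 immunoglobulin segments 13 were lower, with a median of -6.19. Of 12107 protein-coding genes 34.3% were higher and 28.1% lower, and of 1265 long non-coding genes 17.5% and 31.6%. Pseudogenes, whose reads can belong to their parent genes, were higher in 11.7% and lower in 33.2% of 924. Tested genes were split into 4 groups of about equal size by length. Among the shortest (median 1128 bases), 17% were higher and 36% lower, with a median log2 fold change of -0.48, against 36.2% higher and 26.2% lower among the longest (median 8347 bases), with a median of 0.12. Of 25 mitochondrial genes 18 were lower and 3 higher. By the transcription factor families that the table assigns, 8 of 10 E2F factors were higher, 12 of 18 ETS factors were lower (median -0.95) and 21 of 40 bHLH factors were higher (median 0.76). The 418 zinc finger factors of the C2H2 type had 88 higher and 157 lower (median -0.26), while all 4 tested factors of the class that the table calls ESR-like, which holds steroid hormone receptors, were lower (median -1.59).

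**Figure D5:**
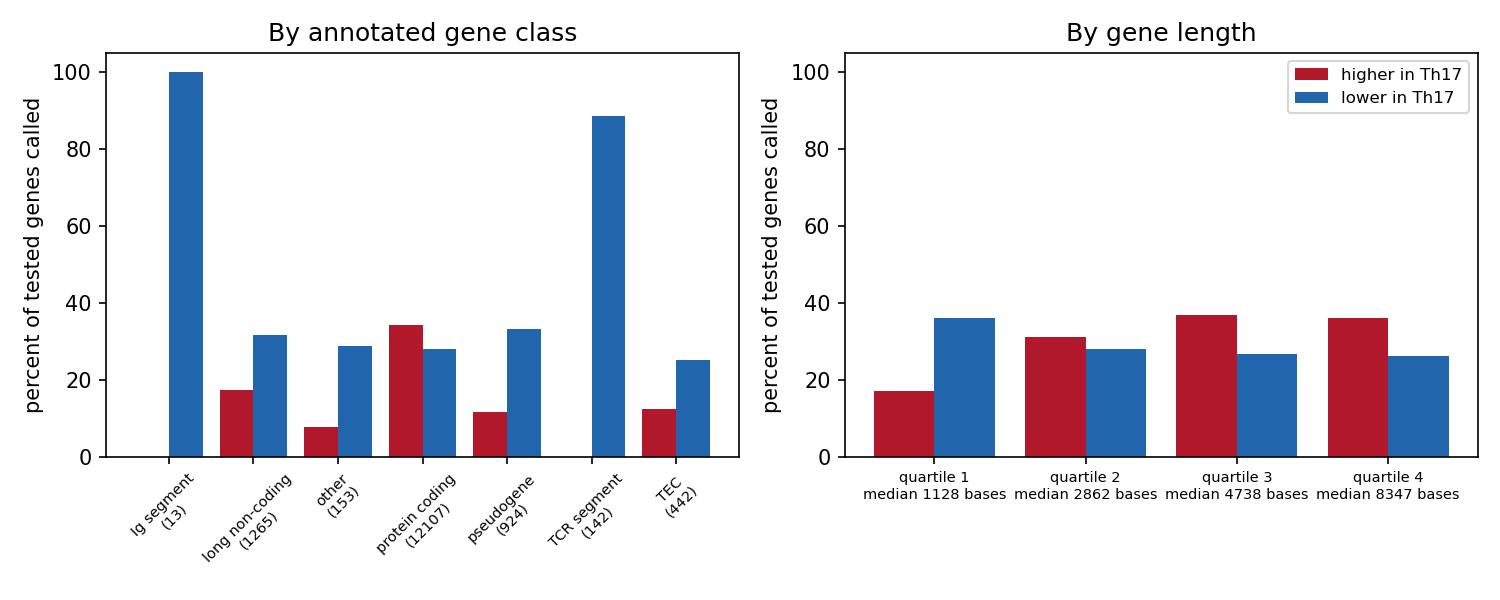
Percent of tested genes called higher (red) or lower (blue) in Th17 than in naive cells, by annotated class on the left, with the number tested in brackets (TEC is an annotation class of provisional transcripts), and by 4 groups of gene length on the right. T cell receptor and immunoglobulin segments hold 0 higher genes, and the shortest genes are the group with more lower (36%) than higher (17%) genes.

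The comparison with Treg cells asks which of these differences also set Th17 cells apart from another T cell type. In the same model, 2956 of the 15046 genes (19.6%) were higher in Th17 than in Treg cells and 2831 (18.8%) lower, and without Th17 library 1 the lower count was 1816. The Th17 libraries are shared by both comparisons. The filter used naive and Th17 libraries alone, so genes expressed in Treg cells but in neither of these could not be counted. With edgeR's own filter applied to all 6 libraries, 3017 genes were higher and 2957 lower in Th17 than in Treg cells. Il21 had 0 counts in Treg libraries. Ahr stood at 29.9 and 35.3 CPM there, between the naive and the Th17 level (Th17 over Treg 3.70 ± 0.19, adjusted p = 1.5e-09), Cyp1b1 at 21.7 and 27.7 CPM (2.83 ± 0.18) and Cdkn1a at 148 and 115 CPM (1.94 ± 0.18). Bhlhe40, at 237 and 291 CPM, differed less (0.86 ± 0.17, adjusted p = 0.0011). Il1r1 stood at 0.173 and 0.0550 CPM (8.32 ± 0.41, or 9.27 without Treg library 1) and Tnfrsf8 had 3 counts over the Treg libraries (ratio 498, 95% interval 170.0 to 2416). Tgfbi, a matrix protein gene, went from 1.68 and 2.34 CPM in naive and 0 counts in Treg libraries to 75.6 and 33.1 CPM in Th17 libraries.

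Among lower genes, Klf2 stood at 208 and 168 CPM in Treg libraries (-5.35 ± 0.22) and Itga4 at 197 and 107 CPM (-5.57 ± 0.40, or -6.57 without Th17 library 5), both far above the Th17 level. Fos was at 18.2 and 18.8 CPM (-3.42 ± 0.22), Irf7 at 8.95 and 8.25 CPM (-2.22 ± 0.28, or -2.87 without Th17 library 5) and Rtp4 at 8.43 and 14.4 CPM, against 1 count in Th17 libraries (ratio 431, 95% interval 76.9 to 17061). Hspa1b was an exception, lower still in Treg libraries at 1.73 and 0.770 CPM (1.93 ± 0.33, or 2.62 without Treg library 1, adjusted p = 2.6e-04), and Dapl1, at 0.115 and 0.275 CPM, was not called (adjusted p = 0.93). Of the 6 genes with the largest loss in CPM against naive cells, Tpt1 was lower than in Treg cells too (-1.41 ± 0.27, adjusted p = 8.0e-04), and mt-Co1, mt-Cytb, Tmsb4x, Rplp1 and Eef1a1 were not called (adjusted p = 0.076 to 0.54). Tmsb4x was called by DESeq2 (adjusted p = 0.027), by limma-voom (adjusted p = 0.037), with no filter (adjusted p = 0.0072), with only the Th17 and Treg libraries fitted (adjusted p = 0.013) and with a replicate block (adjusted p = 0.013). Rplp1 was called with only those libraries fitted (adjusted p = 0.032) and with the block (adjusted p = 0.038). These alternatives for single genes against Treg cells were chosen after seeing the data.

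The authors' deposited table of Th17 against naive cells called 7495 of the 15046 genes at an adjusted p under 0.05, 4152 higher and 3343 lower. Of these, 7475 were also called here with the same sign, 20 were not, and 0 had the opposite sign, while 1484 genes were called here alone.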

How the data were processed

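RNA was prepared with an RNeasy Micro kit and libraries with a SMARTER mRNA-Seq kit, per the labels' protocols. Tools listed in the submitters' processing notes are STAR, cutadapt and DESeq2, with mm10 as the build and without versions or roles. The authors deposited whole-number counts per gene, and their own log2 fold changes with adjusted p-values. Columns numbered 1 and 5 were assigned to cell types by name, and to no sample, since the sample titles are numbered 1 and 2. Another 6 columns of per-sample values were not used. Levels of different genes were compared as CPM per kilobase of the listed gene length, while genes were ranked by gain or loss in plain CPM.

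Counts were tested with edgeR 4.0.16 (R 4.3.3), by its quasi-likelihood F test with TMM scaling over all 6 libraries, which leaves 3 residual degrees of freedom, and Benjamini-Hochberg adjustment over 15046 genes. The standard error was taken as the absolute log2 fold change over the square root of F. CPM uses TMM-scaled library sizes. Changes over 2-fold were tested with glmTreat. The procedure was tested on simulated data. Promoter windows of 250 bases are RefSeq's (GRCm38.p6), matched by symbol and searched on both strands.

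The members and gene lists were chosen with earlier results of these data known. Genes were named by rule: list members with the largest changes or a known role, the 10 largest log2 fold changes in each direction among well expressed genes whose libraries do not overlap, the 6 largest differences in CPM, the 5 long non-coding genes with the largest changes, the 6 also differing most from Treg cells, and all genes within 250 kb of Il17a. Some of these genes are not reported here. Marker genes of other cell types, such as Dntt, Ncr1, Klrb1c and Trdc, were named after their values were seen. Alternatives used other scalings, filters, tests (DESeq2 1.42.0, limma 3.58.1), fewer libraries and a replicate block.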

Additional observations from a re-analysis of the deposited data

How the results depend on the processing

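The counts of genes over all tested genes stayed within 1.5 times of those reported under every alternative, apart from a pair of cases. DESeq2's Wald test against a 2-fold change called 1138 genes lower than in naive cells, where edgeR called 1839. Leaving out Th17 library 1 left 1816 genes lower than in Treg cells, where the full set gave 2831, and the cause was not tested. With each library left out in turn, 3797 to 4360 genes were higher and 3335 to 3973 lower than in naive cells, 2090 to 2272 higher and 1363 to 1693 lower by over 2-fold, and 2114 to 2307 higher and 1816 to 2221 lower than in Treg cells. Such fits assume that the lone library of a type varies like the others. Of 233 genes named and fitted, 211 were called against naive cells, and 197 of these kept direction and call in every alternative fitted. None of the 233 reversed a call under the alternatives run. Scaling by total count ended 11 calls and made 3, and leaving out Th17 library 1 ended 10 and made 1. No label says if the numbers 1 and 5 pair the libraries. Deviations from the type means correlated at 0.0112 for naive and Th17, 0.112 for naive and Treg, and 0.0264 for Th17 and Treg. Such values cannot decide it, since each type gives a single difference per gene, which also holds noise. With the number as a replicate block, 4640 genes were higher and 4459 lower than in naive cells, 2369 and 1847 by over 2-fold, and 3071 and 2990 against Treg cells. With 2 libraries a type, small changes in genes of few counts could not be told from their spread.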
